A study of Saccharomyces cerevisiae with 30 samples.

Results

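The genes described here make ergosterol, the main sterol of the yeast cell membrane, regulate its supply, or take it up and store it. They were chosen by name from their known roles, 34 of the 6101 genes listed. The rule uses no measured value, but the choice was made with earlier results of these data known. They comprise 10 genes of the mevalonate pathway from acetyl-CoA to squalene, 16 genes of the conversion of squalene to ergosterol, 4 transcriptional regulators (UPC2, ECM22, SUT1 and SUT2), and 4 genes of sterol uptake and esterification (AUS1, PDR11, ARE1 and ARE2). RNA was sequenced from budding yeast of the laboratory strain BY4741 and from mutants of SAGA, a coactivator complex that acetylates histones and binds acetylated lysines. Ada3-3KR is mutated for acetylation of Ada3, which belongs to SAGA. Gcn5m and Spt7m carry mutated bromodomains, the modules that bind acetylated lysine, in the subunits Gcn5 and Spt7. Cells of every group had grown in rich medium with glucose and were then kept for 30 min in rich medium with either 2% sucrose or 2% glucose. The Ada3 set consists of Ada3-3KR in sucrose, Ada3-3KR in glucose, wild type (WT) in sucrose and WT in glucose. The bromodomain set consists of Gcn5m, Spt7m and a separate WT, each in sucrose and in glucose. Each of these 10 groups has 3 libraries, 30 in all.

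Ergosterol is built in 2 stages. Acetyl-CoA is first turned into mevalonate, farnesyl pyrophosphate and squalene, with HMG-CoA reductase as the main point of control. Squalene is then oxidised, closed into lanosterol and trimmed to ergosterol by enzymes of which several need molecular oxygen, heme or iron. The zinc-cluster activators Upc2 and Ecm22 bind a sterol response element in promoters of some of these genes, and Upc2 becomes active when sterol runs low. Sut1 promotes uptake of outside sterol, which yeast relies on without oxygen, through the transporters Aus1 and Pdr11, while Are1 and Are2 esterify sterol for storage.

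The sterol response element is shown because Upc2 and Ecm22 bind it in some of these promoters and the choice of genes did not use it. In build R64 of the yeast genome (RefSeq), the letters TCGTATA or their reverse complement TATACGA stood within 500 bases before the coding start in 9 of the 34 genes (26.5%), against 420 of 6000 genes (7.0%). In the shorter window of 250 bases before to 50 bases after the start they stood in 3 of 34 genes (8.82%; ERG13, ERG8 and ERG2), against 249 of 6001 genes (4.15%). The shorter form CGTATA, which every TCGTATA contains, stood in 8 of 34 genes (23.5%) and 15.5% of all genes in that window. The longer window was chosen after the counts of the shorter one were seen. A match describes letters and not a bound site. The stretches below read 5′ to 3′ on the strand of the gene, with the element in capitals and up to 20 bases on either side.
ERG13 (chrXIII:20610-20769, minus strand): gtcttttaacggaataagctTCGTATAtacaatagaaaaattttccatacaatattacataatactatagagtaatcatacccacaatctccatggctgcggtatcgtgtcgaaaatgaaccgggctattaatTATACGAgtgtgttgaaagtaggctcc
ERG8 (chrXIII:712144-712190, plus strand): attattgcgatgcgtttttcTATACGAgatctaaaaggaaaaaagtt
ERG1 (chrVII:848779-848825, minus strand): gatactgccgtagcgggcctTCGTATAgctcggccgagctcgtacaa
ERG25 (chrVII:610064-610127, plus strand): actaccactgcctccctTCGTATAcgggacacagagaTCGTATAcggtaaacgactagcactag
CYB5 (chrXIV:417551-417597, minus strand): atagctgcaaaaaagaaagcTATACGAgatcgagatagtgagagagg
ERG28 (chrV:238268-238314, minus strand): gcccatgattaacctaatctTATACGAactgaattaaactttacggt
ERG6 (chrXIII:253396-253442, minus strand): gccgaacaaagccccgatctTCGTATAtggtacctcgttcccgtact
ERG2 (chrXIII:667332-667378, plus strand): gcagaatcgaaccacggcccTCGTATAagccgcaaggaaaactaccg
ERG3 (chrXII:253515-253601, plus strand): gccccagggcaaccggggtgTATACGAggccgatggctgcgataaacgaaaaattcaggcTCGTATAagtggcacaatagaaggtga
ERG13 and ERG3 held 1 copy on each strand, and ERG25 held 2 copies on its own strand. Neither SUT1 nor ERG5, which had the largest changes described below, held it within 500 bases of the start.

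All values are FPKM (fragments per kilobase of gene, scaled to the mapped fragments of a library), used as deposited, so levels may be compared between genes but sequencing depth is unknown. A library's FPKM summed to between 1152780 and 1288950, with 22 to 33 genes at 0, and libraries of 1 group correlated across genes at 0.992 or more. No source states whether replicates came from separate cultures. The p-values therefore measure spread among libraries that may be technical repeats. Parentheses after a gene hold its log2 difference on the log2(FPKM + 1) scale ± SE, 3 libraries against 3. Such a value passed limma's test across all genes (adjusted p under 0.05) unless the adjusted p beside it is above that threshold. The mutations are described as changes of proteins, so RNA does not check the genotypes. NGG1, which encodes Ada3, itself stood above WT in the mutant Ada3-3KR (0.42 ± 0.06 in sucrose and 0.39 ± 0.06 in glucose), as did GCN5 (0.25 ± 0.06 and 0.25 ± 0.06). GCN5 was lower than in WT in Gcn5m (-0.62 ± 0.09 in sucrose and -0.56 ± 0.09 in glucose) and in Spt7m (-0.44 ± 0.09 in sucrose and -0.399 ± 0.09 in glucose). SPT7 gave -0.09 ± 0.08, adjusted p = 0.301 in sucrose and -0.12 ± 0.08, adjusted p = 0.186 in glucose in Spt7m. The part of these RNA levels in the results was not tested. URA3, a selection marker that BY4741 lacks, was at 223 to 254 FPKM in Gcn5m in sucrose and 399 to 444 in glucose, at 7079 to 10102 and 9581 to 11464 in Spt7m, and at 0.382 to 2.304 and 0 to 0.749 in their WT. Each bromodomain mutant thus differed from its WT in this marker too, and the marker and the mutation cannot be told apart. The values of STE2 (225 to 401 FPKM) and STE3 (0.732 to 3.99 FPKM), receptor genes of the a and alpha mating types, were those of a cells throughout. ARE1 overlaps YCR050C on the opposite strand by 298 bases, so its values are uncertain without a stated strand setting. Rose and fell refer to sucrose relative to glucose. In bulk RNA, fewer cells of a kind and less RNA per cell cannot be told apart.

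All 34 genes passed the filter of a mean of 1 FPKM. In WT of the Ada3 set in glucose the highest was ERG3, the sterol desaturase, at 914 ± 19.9 FPKM (SD, n = 3). ERG13, the HMG-CoA synthase, stood at 332 ± 6.69 FPKM and HMG1 and HMG2, the HMG-CoA reductases, at 45.99 ± 0.560 and 57.4 ± 0.843 FPKM. The lowest were the transporter genes PDR11 at 10.8 ± 0.947 FPKM and AUS1 at 10.2 ± 0.551 FPKM, whose ranges overlapped. Summed over the 34 genes, FPKM was 7917 to 7998 in Ada3-3KR in sucrose, 6758 to 6934 in Ada3-3KR in glucose, 6715 to 6830 in WT in sucrose and 7227 to 7408 in WT in glucose. The mutant's sum was higher in sucrose and the sum of WT lower, with no overlap in either strain. In the bromodomain set the sums in sucrose and then in glucose were 3844 to 4022 and 5274 to 5441 in Gcn5m, 4977 to 5405 and 6042 to 6215 in Spt7m, and 5784 to 5828 and 7192 to 7324 in WT. All 3 strains of that set had lower sums in sucrose, and Gcn5m had the lowest in both sugars.

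In Ada3-3KR, most genes of the late pathway rose. Of the 34 genes 21 rose and 3 fell, against 32.9% and 17.7% of all 5830 genes tested, with a median of 0.18 against 0.06 over all genes. Of the 16 genes from squalene to ergosterol 12 rose and 1, ERG24 (-0.15 ± 0.04), a sterol reductase, fell. The largest rises among them were in ERG11, ERG3, ERG1, CYB5 and ERG25. ERG11, the lanosterol demethylase and target of azole drugs, had 496, 481 and 485 FPKM in sucrose and 294, 293 and 296 in glucose (0.72 ± 0.03, adjusted p = 9.52e-11). ERG3 had 810, 807 and 798 FPKM in sucrose and 561, 570 and 555 in glucose (0.52 ± 0.03). ERG1, the squalene epoxidase, had 504, 497 and 493 FPKM in sucrose and 346, 353 and 365 in glucose (0.49 ± 0.03). For all 3 genes every sucrose library lay above every glucose library. CYB5, which encodes the electron carrier cytochrome b5, rose (0.41 ± 0.07), as did the sterol methyl oxidase gene ERG25 (0.27 ± 0.03). Of the 10 mevalonate genes 5 rose, led by MVD1 (0.23 ± 0.04), the mevalonate pyrophosphate decarboxylase, and ERG9 (-0.14 ± 0.03), the squalene synthase, fell. ARE2, the acyltransferase gene, fell (-0.33 ± 0.04), while its paralogue ARE1 rose (0.304 ± 0.04). With each library rescaled to a common median, 17 of the 34 rose and 6 fell. Of the 5830 genes, 1431 rose and 1534 fell with that rescaling, against 1920 and 1034 without it.

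In WT of the same set more of the genes fell than rose. There 6 of the 34 genes rose and 13 fell, against 32.7% and 13.9% of all genes, with a median of -0.06 against 0.08. The count of falls depended on the scaling, since 22 fell and 4 rose with rescaled medians. Of the 5830 genes, 1765 fell and 1047 rose with that rescaling, against 809 and 1906 without it. Rescaling moved the median of all genes by -0.12. Among the late genes 1 rose and 6 fell. ERG25 had 615, 578 and 582 FPKM in sucrose and 784, 799 and 781 in glucose, so that no libraries overlapped (-0.41 ± 0.03). In Ada3-3KR ERG25 had 732, 705 and 707 FPKM in sucrose and 577, 604 and 597 in glucose, again without overlap but in the opposite direction. ERG1 had 386, 368 and 380 FPKM in WT in sucrose and 430, 440 and 444 in WT in glucose (-0.21 ± 0.03). The 6 genes that rose included all regulators but UPC2, the transporter gene AUS1 and the isomerase gene IDI1 (0.101 ± 0.04), whose sign turned with rescaled medians (-0.03) and which missed the threshold when replicate 1 or 2 of WT in sucrose or replicate 1 or 2 of WT in glucose was left out (limma, adjusted p = 0.0524 to 0.102). Between the strains, 8 genes rose in Ada3-3KR and fell in WT: HMG1, MVD1, ERG1, NCP1, ERG25, ERG2, ERG5 and ARE1. The same count over all genes was not made. With the replicate number as a block, the fall of HMG1 in WT missed the threshold (-0.11, limma adjusted p = 0.0611).

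The difference between the sucrose effects was tested directly as an interaction. It was more positive in Ada3-3KR than in WT for 18 of the 34 genes and more negative for 3, against 17.2% and 21.6% of all genes. With rescaled medians these counts were 23 and 3. Over all 5830 genes they were 1313 and 1026 with rescaled medians, against 1002 and 1262 without rescaling. The median interaction was 0.15, against -0.03 over all genes. Late genes accounted for 11 of the more positive and none of the more negative, also at an unadjusted limma p under 0.05. The interaction was 0.78 ± 0.04 for ERG11, 0.702 ± 0.04 for ERG1, 0.68 ± 0.04 for ERG25 and 0.57 ± 0.04 for ERG3. Of the 3 more negative genes SUT1 had the largest difference (-0.59 ± 0.08). The other two were ECM22 (-0.32 ± 0.06) and AUS1 (-0.34 ± 0.11), and AUS1 missed the threshold when replicate 2 or 3 of Ada3-3KR in sucrose, replicate 2 of Ada3-3KR in glucose, replicate 2 of WT in sucrose or replicate 3 of WT in glucose was left out (limma, adjusted p = 0.0546 to 0.0631).

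**Figure D1:**
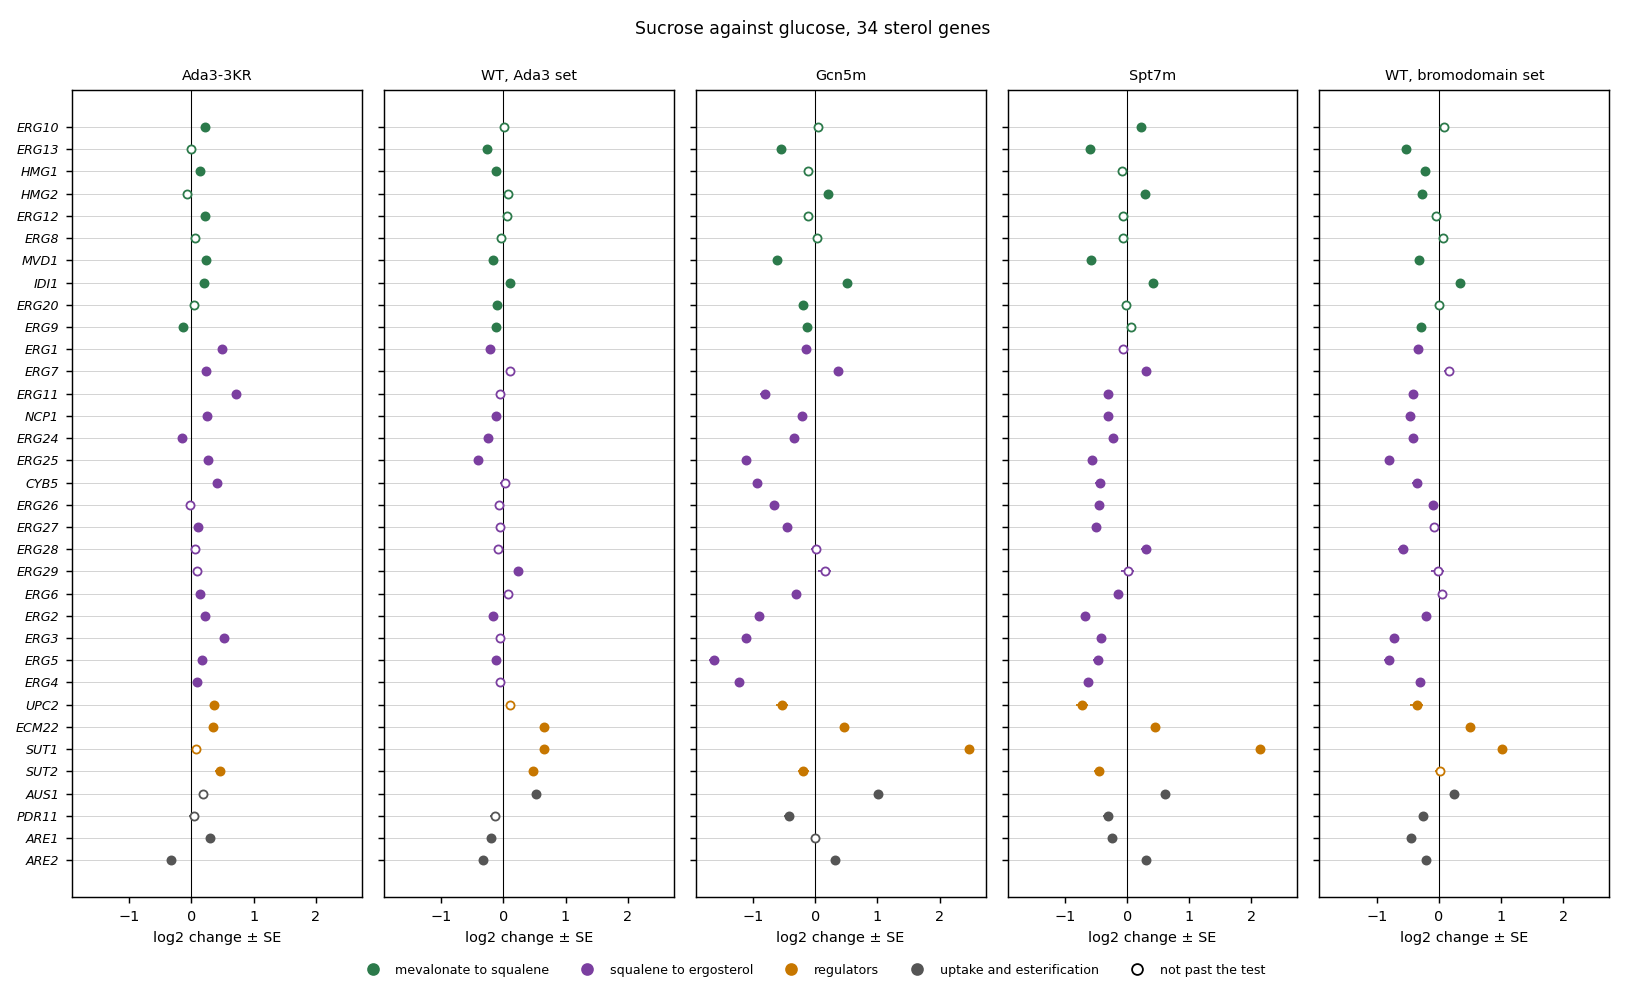
Sucrose effect on each of the 34 genes (log2 FPKM + 1, sucrose minus glucose, ± SE) in the 5 strains, coloured by role, with open circles for values that did not pass limma's test. In Ada3-3KR 21 genes lie above 0 past the test, against 6 in its WT, and SUT1 stands apart at 2.47 in Gcn5m and 2.14 in Spt7m.

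Set against WT in glucose, the sterol genes of Ada3-3KR were divided between higher and lower. Of the 34 genes 11 were higher and 11 lower, against 40.2% and 22.1% of all genes, with a median of -0.05 against 0.09 over all genes. Of the 10 mevalonate genes 6 were higher and none lower (1 at an unadjusted limma p under 0.05), led by ERG20 (0.31 ± 0.03), the farnesyl pyrophosphate synthase, ERG9 (0.24 ± 0.03) and ERG10 (0.24 ± 0.03), the thiolase that opens the pathway. Among late genes 4 were higher and 6 lower. The lower ones were ERG3, ERG25, ERG1, ERG11, NCP1 and ERG2. ERG3 had 561, 570 and 555 FPKM in Ada3-3KR in glucose and 892, 932 and 917 in WT in glucose (-0.701 ± 0.03, adjusted p = 6.66e-11). ERG25 had 577, 604 and 597 FPKM in the mutant and 784, 799 and 781 in WT (-0.41 ± 0.03). Both genes were lower in every mutant library than in any WT library. NCP1, the reductase that supplies electrons to the sterol demethylase, was lower (-0.35 ± 0.04). ERG5, the last desaturase, was higher (0.21 ± 0.04). The numbers depended on scaling, with 10 genes higher and 17 lower after rescaling of medians and 7 and 18 after quantile normalization, under which ERG9 missed the threshold (limma, adjusted p = 0.153). Over all 5830 genes 2343 were higher and 1286 lower in the main fit. These became 1983 and 1545 after rescaling of medians and 1927 and 1515 after quantile normalization.

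In sucrose the same mutant stood above WT along most of the pathway. Of the 34 genes 21 were higher and 6 lower, against 33.8% and 22.2% of all genes, with a median of 0.22 against 0.05. Of the mevalonate genes 8 of 10 were higher, and of the late genes 11 of 16 were higher and only ERG3 (-0.13 ± 0.03) was lower. ERG11 had 496, 481 and 485 FPKM in Ada3-3KR and 349, 335 and 338 in WT (0.51 ± 0.03). ERG5 had 233, 225 and 234 FPKM in the mutant and 167, 162 and 158 in WT (0.502 ± 0.04). ERG10 had 573, 559 and 569 FPKM in the mutant and 419, 412 and 420 in WT (0.44 ± 0.03). None of these groups overlapped. ERG13 (0.44 ± 0.03), ERG20 (0.46 ± 0.03) and ERG28 (0.42 ± 0.04), the scaffold of the sterol demethylation complex, were also higher. The other genes that were lower were UPC2, ECM22, SUT1, AUS1 and PDR11, all regulators or transporters.

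SUT1 had the largest difference of all 34 genes between Ada3-3KR and WT in both sugars. It had 14.3, 12.9 and 12.5 FPKM in Ada3-3KR in sucrose and 12.6, 12.5 and 12.6 in Ada3-3KR in glucose. WT had 54.2, 53.2 and 56.8 FPKM in sucrose and 32.5, 36.2 and 33.97 in glucose. Every mutant library lay below every WT library. The difference from WT was -1.97 ± 0.06 in sucrose and -1.38 ± 0.06 in glucose (limma, adjusted p = 7.7e-12 and 2.73e-10). SUT1 gave 0.07 ± 0.06, adjusted p = 0.359 for sucrose against glucose in Ada3-3KR and rose in WT (0.66 ± 0.06). Its paralogue SUT2 had 14.001, 16.02 and 16.6 FPKM in Ada3-3KR in sucrose, 10.2, 11.6 and 11.1 in Ada3-3KR in glucose, 16.2, 17.8 and 17.1 in WT in sucrose and 11.3, 11.7 and 12.7 in WT in glucose. SUT2 thus rose in both strains (0.46 ± 0.08 in Ada3-3KR and 0.48 ± 0.08 in WT). Mutant against WT it gave -0.13 ± 0.08, adjusted p = 0.173 in sucrose and -0.103 ± 0.08, adjusted p = 0.249 in glucose. After quantile normalization the sucrose value of SUT2 was -0.19 and passed (limma, adjusted p = 0.0264).

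Of the sterol-responsive activators, UPC2 was lower in Ada3-3KR than in WT in both sugars and ECM22 in sucrose. UPC2 had 17.04, 19.1 and 20.5 FPKM in Ada3-3KR in sucrose and 14.7, 14.02 and 14.4 in glucose, and 24.3, 23.5 and 22.8 in WT in sucrose and 20.5, 22.02 and 22.6 in glucose. No mutant library reached a WT library of the same sugar (-0.31 ± 0.07 in sucrose and -0.56 ± 0.07 in glucose). ECM22 had 31.3, 31.2 and 31.4 FPKM in Ada3-3KR in sucrose and 23.9, 25.1 and 24.4 in glucose, and 40.7, 40.7 and 40.8 in WT in sucrose and 24.2, 26.4 and 25.7 in glucose. It rose in both strains (0.34 ± 0.04 and 0.66 ± 0.04) and was lower in the mutant in sucrose (-0.37 ± 0.04). The transporter genes were lower as well. AUS1 had 9.15, 8.16 and 8.11 FPKM in Ada3-3KR in sucrose and 6.79, 8.04 and 7.05 in glucose, against 15.3, 15.7 and 14.3 in WT in sucrose and 10.5, 10.5 and 9.53 in glucose. PDR11 had 8.23, 7.42 and 7.80 FPKM in Ada3-3KR in sucrose and 7.27, 7.16 and 8.44 in glucose, against 9.93, 9.87 and 9.34 in WT in sucrose and 9.78, 11.6 and 11.1 in WT in glucose. Both were lower in the mutant in both sugars (-0.77 ± 0.08 and -0.28 ± 0.08 in sucrose).

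The esterification genes differed from each other. ARE2, which encodes the main sterol acyltransferase of aerobic cells, had 62.8, 68.5 and 67.5 FPKM in Ada3-3KR in sucrose and 82.5, 82.7 and 84.4 in glucose, against 47.3, 50.2 and 47.4 in WT in sucrose and 61.6, 62.2 and 59.4 in glucose. It was higher in the mutant in both sugars (0.45 ± 0.04 and 0.44 ± 0.04) and fell in sucrose in both strains. ARE1 had 72.1, 69.9 and 72.2 FPKM in Ada3-3KR in sucrose and 60.7, 56.7 and 55.6 in glucose, against 56.3, 56.3 and 55.03 in WT in sucrose and 63.4, 63.5 and 65.96 in glucose. It was higher in the mutant in sucrose (0.35 ± 0.04) and lower in glucose (-0.15 ± 0.04). Of the HMG-CoA reductase genes, HMG1 had 53.8, 54.2 and 52.7 FPKM in Ada3-3KR in sucrose and 46.03, 49.9 and 49.2 in glucose, against 43.8, 41.6 and 41.96 in WT in sucrose and 45.7, 46.6 and 45.6 in WT in glucose. HMG2 had 64.1, 59.8 and 62.4 FPKM in Ada3-3KR in sucrose and 62.6, 65.7 and 66.99 in glucose, against 60.7, 59.03 and 61.5 in WT in sucrose and 56.5, 57.6 and 58.2 in WT in glucose. HMG1 was higher than in WT in sucrose (0.33 ± 0.04), and HMG2 in glucose (0.18 ± 0.04).

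**Figure D2:**
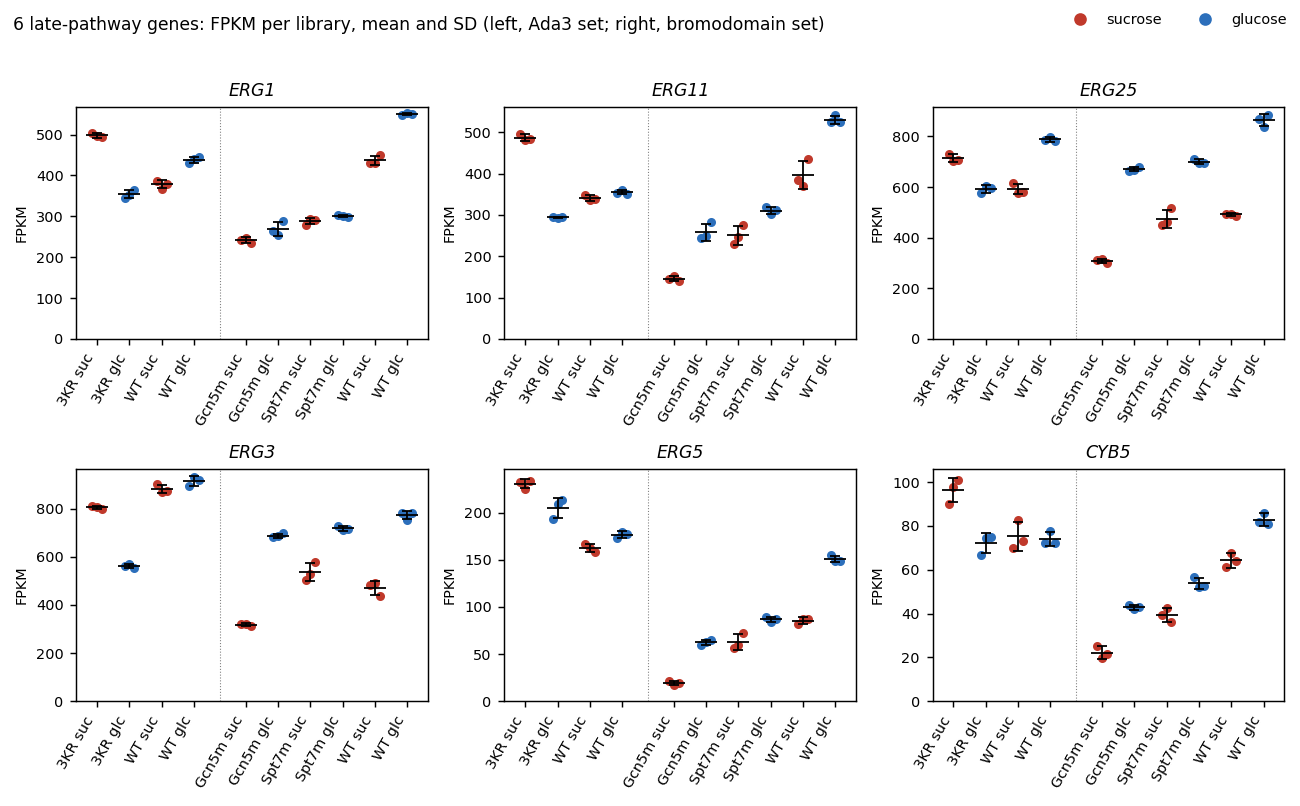
FPKM of 6 late-pathway genes in each of the 30 libraries (points), with the mean and SD of each group of 3 (bars), sucrose left of glucose within a strain and mutants left of WT. ERG11 lies higher in sucrose than in glucose in Ada3-3KR, and ERG5 is lowest in Gcn5m in sucrose.

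In the bromodomain set most genes of the late pathway fell in every strain. In Gcn5m 7 of the 34 genes rose and 20 fell, against 52.2% and 21.8% of all 5841 genes tested, with a median of -0.20 against 0.20. In Spt7m 9 rose and 18 fell, against 51.6% and 24.4%, with a median of -0.18 against 0.19. In WT 4 rose and 21 fell, against 50.9% and 15.7%, with a median of -0.24 against 0.17. With rescaled medians the rises and falls became 4 and 26 in Gcn5m, 4 and 25 in Spt7m, and 2 and 29 in WT. Over all 5841 genes they became 1741 and 2310 in Gcn5m, 1876 and 2427 in Spt7m, and 1330 and 2213 in WT. Without rescaling the all-gene rises and falls were 3048 and 1275, 3013 and 1424, and 2975 and 919. That rescaling moved the median of all genes by -0.25 in Gcn5m and Spt7m and by -0.24 in WT. Of the 16 late genes 13 fell in Gcn5m, 12 in Spt7m and 12 in WT, while 1 rose in Gcn5m, 2 in Spt7m and 0 in WT (1 in WT at an unadjusted limma p under 0.05). Gcn5m and Spt7m shared 17 falling genes, of 20 and 18, and 7 rising genes, of 7 and 9. WT of the bromodomain set and WT of the Ada3 set, from separately made tables, shared 12 falling genes, of 21 and 13, and 4 rising genes, of 4 and 6. Shared calls were not counted over all genes, so these overlaps are not read as particular to the sterol genes.

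The largest falls of late enzymes were in Gcn5m. ERG5 had 21.9, 17.2 and 19.2 FPKM in Gcn5m in sucrose and 59.1, 63.2 and 64.5 in glucose (-1.63 ± 0.08, adjusted p = 2.76e-12). ERG5 in Spt7m had 56.4, 59.7 and 71.9 FPKM in sucrose and 89.4, 83.96 and 87.1 in glucose (-0.47 ± 0.08). In WT it had 81.6, 87.4 and 87.7 FPKM in sucrose and 155, 149 and 149 in glucose (-0.81 ± 0.08). Every sucrose library lay below every glucose library of its strain. ERG4, which makes the final reduction to ergosterol, had 110, 112 and 102 FPKM in Gcn5m in sucrose and 242, 246 and 278 in glucose (-1.23 ± 0.06). Its values in Spt7m were 169, 181 and 195 FPKM in sucrose and 286, 278 and 277 in glucose (-0.63 ± 0.06). ERG4 in WT had 263, 262 and 297 FPKM in sucrose and 338, 331 and 350 in glucose (-0.31 ± 0.06). The fall of ERG4 was more than that of WT in both mutants, by an interaction of -0.92 ± 0.09 in Gcn5m and -0.32 ± 0.09 in Spt7m. ERG25 had 311, 315 and 301 FPKM in Gcn5m in sucrose and 663, 669 and 680 in glucose (-1.12 ± 0.04). ERG3 had 320, 321 and 311 FPKM in Gcn5m in sucrose and 681, 686 and 697 in glucose (-1.11 ± 0.05). These 4 genes were those that fell at least 2-fold in Gcn5m. No member fell that far in Spt7m or WT.

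Interaction tests separated the genes in which the mutants responded unlike WT. In Gcn5m the sucrose effect was more positive than in WT for 9 of the 34 genes and more negative for 12, against 20.9% and 20.7% of all genes. In Spt7m it was more positive for 12 and more negative for 9, against 23.9% and 23.5%. Of the 16 late genes 10 were more negative and 3 more positive in Gcn5m, while in Spt7m 5 were more negative and 5 more positive. ERG5 differed from WT in opposite directions, by -0.82 ± 0.11 in Gcn5m and 0.34 ± 0.11 in Spt7m. Without replicate 3 of Spt7m in sucrose the Spt7m value of ERG5 gave 0.24 (limma, adjusted p = 0.0567). ERG2, the sterol isomerase, was more negative in both (-0.69 ± 0.08 and -0.47 ± 0.08). CYB5 (-0.57 ± 0.11) and ERG26 (-0.56 ± 0.06), a decarboxylase of the demethylation complex, were more negative in Gcn5m. ERG28 was more positive in both (0.58 ± 0.11 and 0.88 ± 0.11), as were HMG2 (0.49 ± 0.07 and 0.56 ± 0.07) and ARE2 (0.52 ± 0.09 and 0.51 ± 0.09). The 2 interactions share the WT libraries.

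SUT1 rose while most of the pathway fell. It had 178, 181 and 170 FPKM in Gcn5m in sucrose and 32.5, 33.1 and 27.5 in glucose (2.47 ± 0.06, adjusted p = 6.73e-17). Spt7m had 155, 149 and 150 FPKM in sucrose and 34.03, 34.5 and 32.2 in glucose (2.14 ± 0.06). WT had 80.9, 80.8 and 74.1 FPKM in sucrose and 38.7, 38.6 and 37.3 in glucose (1.02 ± 0.06). All sucrose libraries of both mutants lay above those of WT, and all their glucose libraries below. The interaction was 1.45 ± 0.08 in Gcn5m and 1.12 ± 0.08 in Spt7m, the largest of the 34 genes in each. SUT2 had 11.5, 11.6 and 10.8 FPKM in Gcn5m in sucrose and 12.1, 14.7 and 12.5 in glucose. In Spt7m SUT2 had 12.6, 10.4 and 11.2 FPKM in sucrose and 16.5, 15.2 and 16.2 in glucose, and in WT 17.96, 16.4 and 14.7 in sucrose and 15.9, 15.3 and 17.2 in glucose. SUT2 fell in Gcn5m (-0.19 ± 0.09) and Spt7m (-0.45 ± 0.09), and in WT it gave 0.01 ± 0.09, adjusted p = 0.887, or -0.23 with rescaled medians. The fall of SUT2 in Gcn5m missed the threshold without replicate 2 of Gcn5m in glucose or any replicate of Gcn5m in sucrose (limma, adjusted p = 0.0623 to 0.258). AUS1, the transporter gene, had 20.2, 18.8 and 18.8 FPKM in Gcn5m in sucrose and 9.53, 8.78 and 8.97 in glucose (1.004 ± 0.06). Spt7m had 17.8, 19.1 and 17.5 FPKM of AUS1 in sucrose and 12.2, 11.5 and 10.8 in glucose (0.62 ± 0.06), and WT had 13.5, 13.5 and 12.4 in sucrose and 11.6, 10.5 and 10.9 in glucose (0.24 ± 0.06). AUS1 rose in all 3 strains without overlap, and more than in WT in Gcn5m (interaction 0.77 ± 0.09) and Spt7m (0.38 ± 0.09). With rescaled medians its WT value was -0.0017. The second transporter gene, PDR11, fell in all 3 strains. In Gcn5m it had 6.46, 6.28 and 6.18 FPKM in sucrose and 9.12, 8.62 and 8.75 in glucose (-0.43 ± 0.07). In Spt7m PDR11 had 6.87, 6.70 and 7.35 FPKM in sucrose and 8.51, 8.70 and 9.55 in glucose (-0.31 ± 0.07), and in WT 6.60, 7.15 and 7.65 in sucrose and 8.69, 8.36 and 9.16 in glucose (-0.26 ± 0.07). Its interaction was -0.17 ± 0.10, adjusted p = 0.177 in Gcn5m and -0.05 ± 0.10, adjusted p = 0.68 in Spt7m.

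In the bromodomain set UPC2 and ECM22 moved in opposite directions between the sugars. UPC2 had 12.3, 11.3 and 11.1 FPKM in Gcn5m in sucrose and 16.8, 18.7 and 16.2 in glucose (-0.54 ± 0.10). It had 11.3, 9.20 and 13.8 FPKM in Spt7m in sucrose and 18.8, 19.3 and 20.2 in glucose (-0.73 ± 0.10), and 16.6, 18.5 and 18.8 in WT in sucrose and 21.9, 23.8 and 24.3 in WT in glucose (-0.36 ± 0.10). UPC2 fell in all 3 strains of the bromodomain set, whereas in the Ada3 set it rose in Ada3-3KR. ECM22 had 31.5, 31.3 and 30.9 FPKM in Gcn5m in sucrose and 21.2, 22.3 and 23.6 in glucose. In Spt7m it had 29.4, 33.4 and 34.02 FPKM in sucrose and 23.4, 22.8 and 23.7 in glucose, and in WT 32.7, 32.4 and 34.7 in sucrose and 21.8, 24.2 and 23.5 in glucose. It rose in all 5 strains of the study. UPC2 was lower than WT in sucrose in Gcn5m (-0.59 ± 0.10) and Spt7m (-0.62 ± 0.10). ECM22 gave -0.09 ± 0.06, adjusted p = 0.183 and -0.04 ± 0.06, adjusted p = 0.512 in those comparisons.

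**Figure D3:**
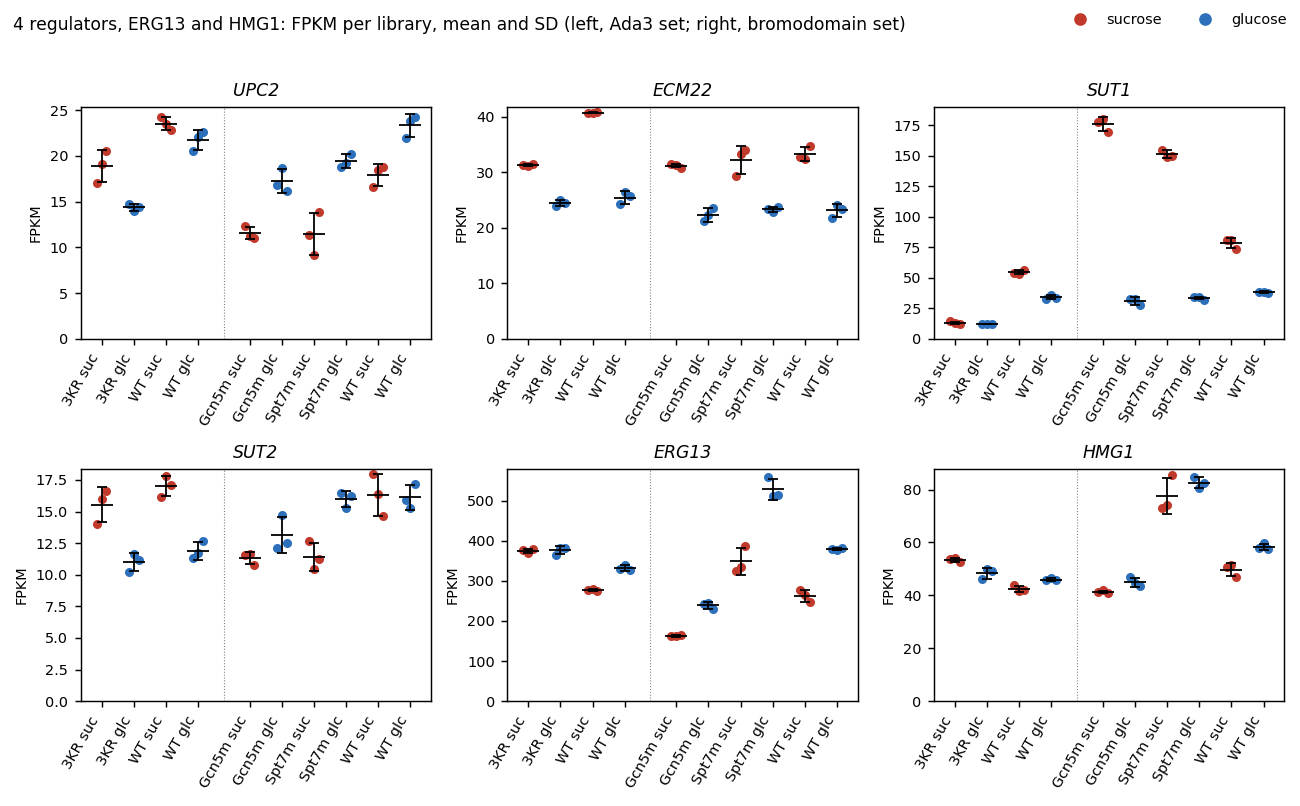
FPKM of the 4 regulators, ERG13 and HMG1 in each library (points), with the mean and SD of each group of 3 (bars), sucrose left of glucose and mutants left of WT. SUT1 reaches 170 to 181 in Gcn5m in sucrose, against 12.5 to 14.3 in Ada3-3KR in sucrose, and ERG13 and HMG1 lie above WT in Spt7m and below it in Gcn5m.

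Gcn5m had less RNA of most sterol genes than WT in either sugar. In glucose 2 of the 34 were higher and 26 lower, against 20.8% and 41.2% of all genes, with a median of -0.33 against -0.10. In sucrose 6 were higher and 22 lower, against 28.0% and 42.6%, with a median of -0.39 against -0.09. With rescaled medians the glucose counts were 2 and 24. Over all 5841 genes they were then 1634 and 1899, against 1216 and 2405 without rescaling. Of the 16 late genes 14 were lower and 2 higher in glucose, and 13 lower and 1 higher in sucrose. ERG7, the lanosterol synthase, had 31.2, 35.1 and 36.1 FPKM in Gcn5m in glucose and 87.2, 83.3 and 84.6 in WT (-1.29 ± 0.07, adjusted p = 3.15e-11). ERG28 had 104, 116 and 95.1 FPKM in Gcn5m in glucose and 262, 233 and 266 in WT (-1.27 ± 0.08). ERG11 had 244, 250 and 282 FPKM in Gcn5m in glucose and 525, 542 and 524 in WT (-1.04 ± 0.07). No mutant library of these genes reached a WT library. ERG1 (-1.03 ± 0.04) and ERG5 (-1.26 ± 0.08) were also lower. The only higher genes were ERG27 (0.29 ± 0.05), a keto reductase, and ERG29 (0.47 ± 0.10).

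In sucrose ERG5 had the largest difference, with Gcn5m at 21.9, 17.2 and 19.2 FPKM and WT at 81.6, 87.4 and 87.7 (-2.09 ± 0.08, adjusted p = 1.37e-13). CYB5 had 25.2, 19.5 and 21.7 FPKM in Gcn5m and 61.2, 67.7 and 63.9 in WT (-1.504 ± 0.07). ERG11 had 145, 153 and 141 FPKM in Gcn5m and 383, 371 and 435 in WT (-1.43 ± 0.07). In each of these genes the mutant stood below WT without overlap. ERG4 (-1.34 ± 0.06), ERG7 (-1.08 ± 0.07) and ERG2 (-1.07 ± 0.06) also differed by more than 2-fold. Among the 6 higher genes were SUT1 (1.15 ± 0.06), AUS1 (0.52 ± 0.06) and ARE2 (0.39 ± 0.06).

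Spt7m had less RNA of several genes of both stages than WT, and more of ERG13 and HMG1. In glucose 4 of the 34 genes were higher and 18 lower than WT, against 15.7% and 37.5% of all genes, with a median of -0.18 against -0.10. In sucrose 9 were higher and 16 lower, against 28.8% and 41.5%, with a median of -0.11 against -0.08. The sucrose counts lie near the background. Of the 16 late genes 9 were lower and 2 higher in either sugar. Of the 10 mevalonate genes 5 were lower in either sugar, while 2 were higher in glucose and 4 in sucrose. ERG10 (-0.26 ± 0.04), ERG20 (-0.33 ± 0.04), IDI1 (-0.39 ± 0.05) and MVD1 (-0.27 ± 0.04) were lower in glucose, and all 4 were lower in sucrose too. With rescaled medians the glucose counts were 4 and 15. Over all 5841 genes they were then 1315 and 1453, against 917 and 2191 without rescaling. In glucose ERG28 (-0.91 ± 0.08), ERG7 (-0.903 ± 0.07), ERG1 (-0.87 ± 0.04), ERG5 (-0.79 ± 0.08) and ERG11 (-0.77 ± 0.07) had the largest differences, and all 5 were also lower in Gcn5m, which shares the WT libraries. ERG13 had 559, 511 and 515 FPKM in Spt7m in glucose and 379, 376 and 382 in WT (0.48 ± 0.06). HMG1 had 84.6, 80.4 and 82.6 FPKM in Spt7m in glucose and 57.7, 59.8 and 57.6 in WT (0.49 ± 0.05). Both were higher without overlap. They were higher in sucrose too, at 325, 333 and 387 FPKM in Spt7m against 277, 264 and 246 in WT for ERG13 (0.41 ± 0.06) and at 73.2, 74.04 and 85.5 FPKM in Spt7m against 50.6, 51.5 and 47.1 in WT for HMG1 (0.63 ± 0.05). HMG2 had 45.5, 45.8 and 48.2 FPKM in Spt7m in sucrose and 37.6, 37.7 and 38.7 in glucose, against 41.3, 39.1 and 37.8 in WT in sucrose and 46.03, 49.2 and 48.7 in WT in glucose. It was higher than WT in sucrose (0.23 ± 0.05) and lower in glucose (-0.33 ± 0.05). SUT1 (0.94 ± 0.06) and AUS1 (0.44 ± 0.06) were higher in sucrose, as in Gcn5m.

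**Figure D4:**
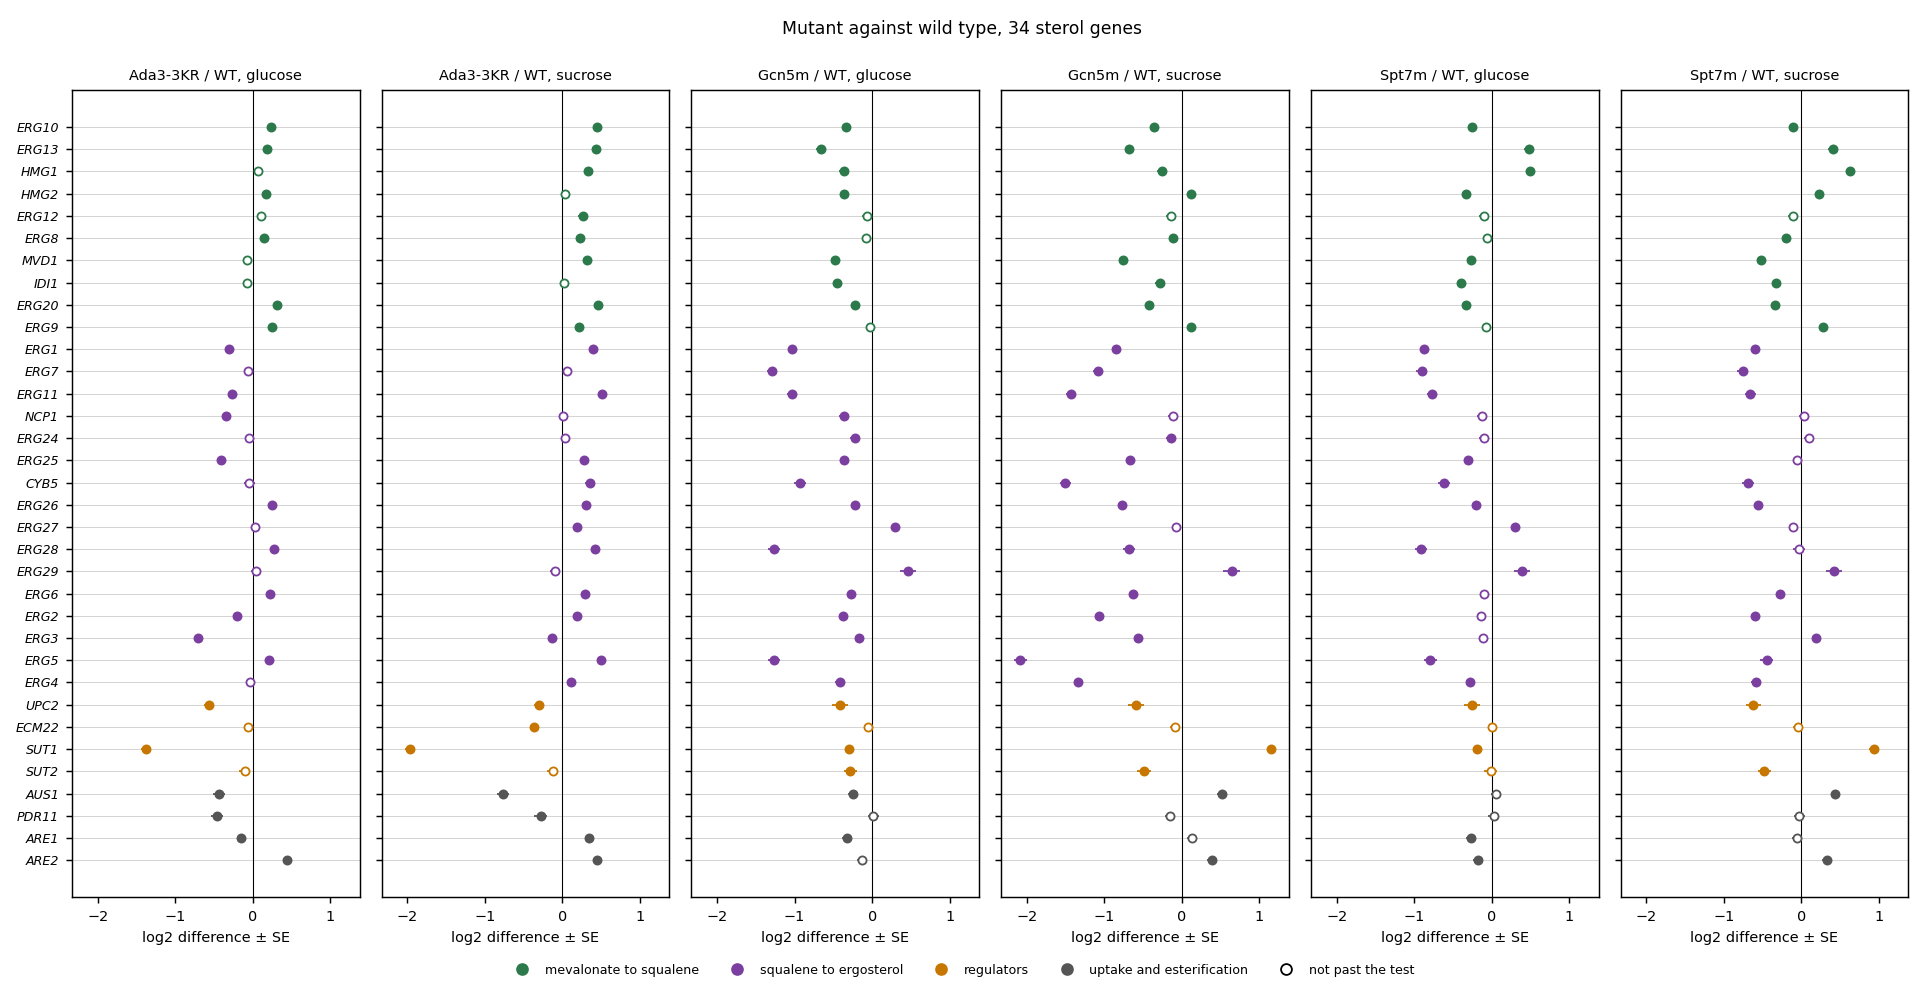
Difference of each mutant from its WT (log2 FPKM + 1, mutant minus WT, ± SE) for the 34 genes in glucose and in sucrose, coloured by role, with open circles for values that did not pass limma's test. Most late genes lie left of 0 in Gcn5m, with ERG5 in sucrose at -2.09, while ERG13 and HMG1 lie right of 0 in Spt7m and left of 0 in Gcn5m.

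The bromodomain mutants were also compared with each other. They differed in URA3 too, at means of 428 FPKM in Gcn5m and 10316 in Spt7m in glucose. In sucrose the URA3 means were 242 and 8335 FPKM, so marker and mutation cannot be told apart here either. In glucose Gcn5m had none of the 34 genes higher than Spt7m (1 at an unadjusted limma p under 0.05) and 14 lower, against 14.0% and 13.6% of all genes, with a median of -0.12 against 0.01. In sucrose it had 2 higher and 18 lower, against 8.27% and 11.4%, with a median of -0.19 against 0.01. Of the 16 late genes 9 were lower in glucose and 13 in sucrose. ERG13 had 243, 245 and 229 FPKM in Gcn5m in glucose and 559, 511 and 515 in Spt7m (-1.14 ± 0.06, adjusted p = 1.91e-10). HMG1 had 46.8, 44.6 and 43.5 FPKM in Gcn5m and 84.6, 80.4 and 82.6 in Spt7m in glucose (-0.86 ± 0.05). In sucrose ERG5 gave -1.64 ± 0.08, ERG13 -1.08 ± 0.06 and HMG1 -0.89 ± 0.05. All of these were lower in every Gcn5m library than in any Spt7m library. CYB5 (-0.81 ± 0.07), ERG11 (-0.77 ± 0.07), ERG3 (-0.75 ± 0.05) and ERG4 (-0.75 ± 0.06) were lower in Gcn5m in sucrose as well. The 2 higher genes in sucrose were SUT1 (0.22 ± 0.06) and ARE1 (0.19 ± 0.06), and leaving out single libraries left between 0 and 2 such genes. SUT1 missed the threshold without replicate 2 of Gcn5m or replicate 2 or 3 of Spt7m (limma, adjusted p = 0.0503 to 0.0599). ARE1 missed it without replicate 1 of Gcn5m or any replicate of Spt7m (limma, adjusted p = 0.0509 to 0.154).

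Few of these differences were large outside Gcn5m. In Gcn5m the share of members past 2-fold was above that of all genes, between the sugars and against WT. In the Ada3 set none of the 34 genes changed at least 2-fold between the sugars, in Ada3-3KR or in WT, against 2.11% and 1.90% of all genes. None did so in the interaction, against 1.75%. SUT1 alone differed that far between Ada3-3KR and WT, against 2.47% of all genes in glucose and 2.49% in sucrose. In the bromodomain set 6 members changed at least 2-fold between the sugars in Gcn5m, against 8.44% of all genes. SUT1 alone did so in Spt7m, against 10% of all genes, and in WT, against 4.42%. Against WT, 5 members differed that far in Gcn5m in glucose (3.25% of all genes) and 7 in sucrose (6.06%). None did so in Spt7m in glucose (1.66%) or in sucrose (4.85%). The interactions passed 2-fold for SUT1 alone, against 3.01% of all genes for Gcn5m and 3.37% for Spt7m. Gcn5m and Spt7m differed that far in ERG13 in glucose (0.462%), and in ERG5 and ERG13 in sucrose (0.599%).

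Within pairs of related genes the balance shifted. The log2 ratio of HMG1 to HMG2 was 1.10 ± 0.04 in Spt7m in glucose, 0.28 ± 0.02 in Gcn5m in glucose and 0.28 ± 0.04 in WT in glucose (SD, n = 3). The log2 ratio of SUT1 to SUT2 was 3.85 ± 0.01 in Gcn5m in sucrose and 1.18 ± 0.15 in Gcn5m in glucose. It was 3.62 ± 0.10 in Spt7m in sucrose, 1.03 ± 0.09 in Spt7m in glucose, 2.20 ± 0.08 in WT in sucrose and 1.198 ± 0.11 in WT in glucose. In the Ada3 set it was -0.22 ± 0.22 in Ada3-3KR in sucrose and 1.63 ± 0.09 in WT in sucrose. The ratio of AUS1 to PDR11 was 1.47 ± 0.03 in Gcn5m in sucrose and 0.04 ± 0.02 in glucose. It was 1.26 ± 0.12 and 0.33 ± 0.16 in Spt7m, and 0.80 ± 0.15 and 0.30 ± 0.07 in WT of the bromodomain set. That of UPC2 to ECM22 was -1.36 ± 0.06 in Gcn5m in sucrose and -0.36 ± 0.14 in glucose. In Spt7m it was -1.43 ± 0.28 and -0.25 ± 0.04, and in WT of the bromodomain set -0.86 ± 0.08 and 0.01 ± 0.03. Libraries of Spt7m and WT did not overlap in HMG1 to HMG2 in glucose, while those of Gcn5m and WT did. Sucrose and glucose libraries of each bromodomain strain did not overlap in SUT1 to SUT2. An exact permutation test of 3 against 3 cannot give a p below 0.1, so these ratios are descriptions. In sucrose ARE1 had 57.9, 52.4 and 52.2 FPKM in Gcn5m and 50.6, 51.8 and 45.8 in WT. ARE2 had 70.5, 69.8 and 67.995 FPKM in Gcn5m and 52.8, 58.4 and 47.6 in WT, so that ARE2 was higher in the mutant (0.39 ± 0.06) and ARE1 gave 0.13 ± 0.06, adjusted p = 0.0564. ARE1 passed after rescaling of medians (0.20, limma adjusted p = 0.00826).

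Genes that act next to the pathway were read from lists of related genes. Of 23 tested genes of sterol transport and storage, 9 rose and 10 fell in Gcn5m, 12 rose and 9 fell in Spt7m, and 8 rose and 4 fell in WT of that set. The shares of all genes that rose and fell were 52.2% and 21.8% in Gcn5m, 51.6% and 24.4% in Spt7m, and 50.9% and 15.7% in WT, and they apply to the counts of the next lists too. NPC2, which encodes a sterol-binding protein of the vacuole, rose in all 3 strains (1.05 ± 0.04 in Gcn5m, 1.15 ± 0.04 in Spt7m and 0.74 ± 0.04 in WT). The median of this list stood at -0.06 in Gcn5m, 0.27 in Spt7m and -0.03 in WT. YEH1, a steryl ester hydrolase gene, fell in Gcn5m (-0.88 ± 0.08), Spt7m (-1.11 ± 0.08) and their WT (-0.35 ± 0.08) and rose in Ada3-3KR (0.803 ± 0.06). Its enzyme frees the sterol that Are1 and Are2 store. ATF2, an acetyltransferase gene of sterol detoxification, rose in Ada3-3KR (0.896 ± 0.07) and fell in Spt7m (-0.43 ± 0.12). The transport and storage list as a whole had 8 rising and 6 falling genes of 23 in Ada3-3KR, against 32.9% and 17.7% of all genes. Its median there was 0.04, against 0.06 over all genes. In WT of the Ada3 set 4 rose and 3 fell, against 32.7% and 13.9%. Of 7 genes of HMG-CoA reductase control and Erg11 partnership 3 rose and 2 fell in Gcn5m (median 0.12), and 4 rose and 1 fell in Spt7m (median 0.21). NSG2, which stabilises HMG-CoA reductase, rose in Gcn5m (0.52 ± 0.04), Spt7m (0.63 ± 0.04) and WT of that set (0.33 ± 0.04, or 0.076 and not past the test with rescaled medians, limma adjusted p = 0.0927). Its paralogue NSG1 fell in Gcn5m (-0.52 ± 0.05), Spt7m (-0.72 ± 0.05) and that WT (-0.202 ± 0.05). Of 10 tested genes of isoprenoid branches, which draw on the mevalonate pathway for ubiquinone, dolichol and prenyl groups, 5 rose and 1 fell in Gcn5m, 6 rose and 1 fell in Spt7m, and 7 rose and none fell in WT, also at an unadjusted limma p under 0.05. Their medians were 0.20, 0.26 and 0.26, against 0.20, 0.19 and 0.17 over all genes.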

How the data were processed

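Per the labels, libraries were made with a TruSeq RNA kit from total RNA of cells held for 30 min in 2% sucrose or 2% glucose. The authors deposited a table of FPKM per gene for each of 2 sets. Build R64 is named in the submitters' processing notes, along with StringTie 1.3.3b, HISAT2 2.1.0 and cutadapt 1.16. Roles, filters, strand setting and annotation are not given in the sources used here. The values are FPKM without counts, so depth and counting error are unknown.

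Values were used as log2(FPKM + 1), and a gene entered the tests if it averaged 1 FPKM or more across the libraries of its set, which 5830 genes did in the Ada3 set and 5841 in the bromodomain set. Each set was fitted with limma 3.58.1 in R 4.3.3, with 1 mean per group and a variance allowed to follow the mean level. Calls were made at p under 0.05 after Benjamini-Hochberg adjustment over all genes of a comparison. An interaction is a mutant's sucrose effect minus that of its WT. Ratios within 5 pairs of related genes were compared by a two-sided exact permutation test (SciPy 1.17.1). It was run for 5 pairs in 13 comparisons, and its smallest possible p is 0.1. Same-numbered libraries deviated together in every pair in 1 of 21 pairs of groups, WT of the Ada3 set in sucrose and glucose (correlations of 0.118 to 0.408), and in no other pair of groups were all above 0.1. The 34 genes and the lists were chosen with earlier results of these data known.

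The rule for named genes allowed every member to be named, and gave all libraries for up to 10 members per comparison with the largest called, non-overlapping change, for SUT1, UPC2, ECM22, HMG1 and HMG2, and for both genes of each pair. Of each list of related genes it named up to 4 called genes per comparison. All 34 members matched the RefSeq annotation by symbol, and BLAST 2.17.0 found none with a copy of at least 90% identity over 50% of its length. Promoters were read from the R64 genome with Python 3.11.15, and matplotlib 3.10.9 drew the figures. Alternatives were a pseudocount of 0.1, no filter, a filter at 5 FPKM, quantile normalization, rescaling of medians, a replicate block, a fit of only the groups compared, a 2-fold minimum, and leaving out each library.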

Additional observations from a re-analysis of the deposited data

Results flagged for a closer look

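The sucrose effect on sterol genes differed between a mutant and its WT by limma's interaction test (adjusted p under 0.05). For Ada3-3KR 18 of the 34 members were more positive and 3 more negative than in WT, against 17.2% and 21.6% of all genes. The 8 largest differences were ERG11 0.78, ERG1 0.70, ERG25 0.68, SUT1 -0.59, ERG3 0.57, ARE1 0.50, CYB5 0.39 and MVD1 0.39. For Gcn5m 9 members were more positive and 12 more negative, against 20.9% and 20.7% of all genes. The largest were SUT1 1.45, ERG4 -0.92, ERG5 -0.82, AUS1 0.77, ERG2 -0.69, ERG28 0.58, CYB5 -0.57 and ERG26 -0.56. For Spt7m 12 were more positive and 9 more negative, against 23.9% and 23.5% of all genes. Those with the largest values were SUT1 1.12, ERG28 0.88, HMG2 0.56, ARE2 0.51, ERG2 -0.47, SUT2 -0.47, ERG27 -0.42 and AUS1 0.38. Values are log2 interactions on the log2(FPKM + 1) scale. URA3 differed between each bromodomain mutant and its WT, and its part in these differences was not tested.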

How the results depend on the processing

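Most single-gene calls among the 34 genes kept their direction and side of the threshold. Leaving out 1 library gave 133 weaker, 30 stronger and 0 reversed of the repeated gene tests, counting the related genes named. Counts without single libraries ranged, higher and then lower, as follows. They were 19 to 22 and 3 for sucrose in Ada3-3KR, 5 to 6 and 9 to 13 in its WT, 11 to 13 and 11 to 12 for Ada3-3KR against WT in glucose, 21 and 6 in sucrose, and 16 to 17 and 2 to 4 for its interaction. They were 7 to 8 and 19 to 21 for sucrose in Gcn5m, 9 and 18 to 19 in Spt7m, and 4 and 20 to 21 in WT. Against WT they were 2 and 26 to 27 for Gcn5m in glucose, 5 to 7 and 21 to 23 in sucrose, 4 and 16 to 18 for Spt7m in glucose, and 9 to 10 and 15 to 17 in sucrose. Interactions gave 7 to 9 and 12 for Gcn5m and 10 to 12 and 6 to 9 for Spt7m. Gcn5m against Spt7m gave 0 to 1 and 13 to 14 in glucose and 0 to 2 and 18 in sucrose. Few changes reached 2-fold outside Gcn5m. Higher and lower counts were 0 and 0 for sucrose in Ada3-3KR, its WT and the interaction, and 0 and 1 for Ada3-3KR against WT in either sugar. They were 2 and 4 for sucrose in Gcn5m, 1 and 0 in Spt7m, 1 and 0 in WT, 0 and 5 for Gcn5m against WT in glucose, 1 and 6 in sucrose, 0 and 0 for Spt7m against WT in either sugar, 1 and 0 for each bromodomain interaction, and 0 and 1 (glucose) or 0 and 2 (sucrose) for Gcn5m against Spt7m. Quantile normalization gave 21 lower in WT of the Ada3 set in sucrose, 7 higher and 18 lower for Ada3-3KR against WT in glucose, and 4 higher for sucrose in Gcn5m and in Spt7m. Over all genes quantile normalization gave, in the same order, 1502 lower, 1927 higher and 1515 lower, 1820 higher and 1974 higher. In the main fit these were 809 lower, 2343 higher and 1286 lower, 3048 higher and 3013 higher. Rescaling of medians gave 6 lower for sucrose in Ada3-3KR, 22 lower in its WT, 17 lower for Ada3-3KR against WT in glucose, 4 higher in Gcn5m and in Spt7m, and 2 higher in WT of the bromodomain set. The counts over all genes moved with this rescaling too and are given with each comparison above. Signs turned, with quantile and then rescaled values where 2 are given, for ERG10 (-0.087 and -0.11) and IDI1 (-0.025, rescaled) for sucrose in WT of the Ada3 set, for ERG27 (-0.075, quantile) for Ada3-3KR against WT in glucose, and for ERG9 (0.12, quantile) in its interaction. For sucrose in Gcn5m they turned for ARE1 (-0.26 and -0.26), ERG10 (-0.17 and -0.21), ERG28 (-0.26 and -0.25), ERG8 (-0.23 and -0.23) and HMG2 (-0.046 and -0.045). In Spt7m they turned for ERG10 (-0.0083 and -0.051), ERG29 (-0.26 and -0.26) and ERG9 (-0.24 and -0.21), and in WT of the bromodomain set for AUS1 (-0.018 and -0.0017), ERG10 (-0.11 and -0.18), ERG6 (-0.15 and -0.22), ERG8 (-0.16 and -0.19) and SUT2 (-0.24 and -0.23). Rescaling of medians shifts all genes of a library together by construction, and quantile normalization changes each gene by its rank. The cause of the differences was not tested. The log2 change of AUS1 to PDR11 in Gcn5m was 1.55 with a pseudocount of 0.1, against 1.43. The motif counts were 8 for CGTATA and 9 in the window of 500 bases, against 3.

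Deviations of same-numbered libraries correlated at -0.25 to 0.41 in the Ada3 set and -0.43 to 0.34 in the bromodomain set, and every pair exceeded 0.1 in WT of the Ada3 set (sucrose with glucose) and in no other pair of groups. A fit with the replicate number as a block gave 22 rising and 3 falling genes in Ada3-3KR, 6 and 12 in its WT, and 7 higher and 23 lower for Gcn5m against WT in sucrose, and it moved no count by over 1.5 times. FPKM without counts gives no counting error, so the precision rests on 3 libraries a group.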

Other observations

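ROX1, the repressor of hypoxic genes, also rose in the bromodomain set. It had 247, 240 and 234 FPKM in Gcn5m in sucrose and 79.4, 80.2 and 73.8 in glucose (1.61 ± 0.05). Spt7m had 195, 191 and 192 FPKM in sucrose and 63.6, 61.1 and 63.4 in glucose (1.604 ± 0.05), and WT had 86.1, 93.6 and 83.7 in sucrose and 57.9, 55.2 and 60.6 in glucose (0.59 ± 0.05). The rise was larger than in WT by an interaction of 1.02 ± 0.07 in Gcn5m and 1.01 ± 0.07 in Spt7m (limma, adjusted p = 1.26e-09 and 1.23e-09). ROX1 came from a list of 7 regulators linked to heme and oxygen. Of these 5 rose and 1 fell in Gcn5m (median 0.287), and 4 rose and 1 fell in Spt7m (median 0.112). In WT of that set 4 fell and 1, ROX1 itself, rose (median -0.139). The shares of all genes are those given for the other lists. The regulator gene MOT3 had lower mean FPKM in sucrose than in glucose in each strain of the bromodomain set. The means were 11.47 and 14.17 in Gcn5m, 10.43 and 14.97 in Spt7m, and 15.66 and 19.16 in WT.

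The DAN and TIR genes encode cell wall mannoproteins made when oxygen is low, and 6 of 8 were tested. In Spt7m in sucrose all 6 were higher than in WT, against 28.8% of all genes, with a median of 0.78. In WT 4 of 6 fell in sucrose (15.7% of all genes), with a median of -1.05. In Spt7m 2 rose and 2 fell, against 51.6% and 24.4% of all genes, and in Gcn5m 3 rose and 3 fell, against 52.2% and 21.8%. In Gcn5m in glucose 5 of 6 were lower than in WT, against 41.2% of all genes, with a median of -0.79. In sucrose 1 was higher and 2 were lower in Gcn5m than in WT, against 28.0% and 42.6%, with a median of 0.016. TIR2 had 20.1, 20.8 and 24.9 FPKM in Spt7m in sucrose and 5.34, 5.67 and 5.46 in WT in sucrose (1.81 ± 0.11). DAN1 had 1.26, 2.21 and 2.40 FPKM in Gcn5m in sucrose and 2.22, 3.34 and 3.40 in glucose, and 5.39, 5.43 and 7.62 in Spt7m in sucrose and 5.13, 7.27 and 5.79 in Spt7m in glucose. In WT of that set DAN1 had 1.41, 2.13 and 1.501 FPKM in sucrose and 12.97, 16.1 and 15.98 in glucose (-2.58 ± 0.18). In glucose, DAN1 of the Ada3 set stood lower, at 13.03, 13.4 and 11.5 FPKM in Ada3-3KR against 51.9, 52.8 and 58.2 in WT (-2.02 ± 0.08). The 2 WT groups in glucose thus differed in DAN1, from tables made separately. Values in parentheses are log2 differences ± SE on the log2(FPKM + 1) scale.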
